A study of Mus musculus with 10 samples.

Results

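Tumor necrosis factor (*Tnf*), the lymphotoxins *Lta* and *Ltb*, the death ligand *Tnfsf10* (TRAIL), the receptors *Tnfrsf1a*, *Tnfrsf1b*, *Ltbr*, *Tnfrsf10b* and *Fas*, and the initiator protease *Casp8* were read in mouse melanomas grown in WT or *Siah2*-/- hosts. These 10 genes were picked by symbol and make up 10 of the 770 genes in the table. Each of the 10 tumors, 5 from WT and 5 from Siah2 KO mice, was profiled with the NanoString PanCancer Immune panel for mouse, in which barcoded probes hybridize to RNA and are counted without amplification. The hosts were male C57BL/6 mice a few weeks old, and those called Siah2 KO lacked Siah2, a ubiquitin ligase, throughout the body. Both hosts received the same YUMMER1.7 cells, a Braf-mutant mouse melanoma line with many somatic mutations, so the injected cells were not deleted for *Siah2* in either group. Tumors were taken 11 days after injection according to the sample labels, and 100 ng of RNA went into each assay. The design text of the series names another melanoma line, another knockout and another day, and the groups used here are those of the sample labels. The panel has no *Siah2* probe, so the genotypes could not be checked in these data. The labels do not say how the tumors were assigned to mice, cages or cartridges, and p-values measure the spread between these 10 tumors.

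Tnf is released mainly by macrophages and activated T cells and acts through the receptors Tnfrsf1a and Tnfrsf1b, of which the former carries a death domain and can lead either to NF-kappaB activity or to cell death. Lymphotoxin alpha binds the same receptors as a trimer, whereas its complex with lymphotoxin beta binds Ltbr, which is found on stromal and myeloid cells and drives lymphoid tissue formation. Fas and the TRAIL receptor recruit the adaptor Fadd and with it caspase-8, which starts apoptosis and through Bid reaches the mitochondria.

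*Tnf*, *Lta* and *Ltb* lie side by side in the class III region of the major histocompatibility complex on chromosome 17, at 35194507 to 35196305 for *Ltb*, 35199367 to 35202007 for *Tnf* and 35203165 to 35205578 for *Lta* (GRCm38.p6, RefSeq). From end to end these genes span 11072 bases, with 3061 bases between *Ltb* and *Tnf* and 1157 between *Tnf* and *Lta*. The table of promoters from RefSeq held 9 of the 10 genes, and *Tnfrsf10b* was not matched. The 250 bases before the start are shown for *Tnf* (chr17:35202008-35202257, minus strand) and for its neighbour *Ltb* (chr17:35194257-35194506, plus strand), since these adjacent genes gave unlike readings in the tumors. Each window lies outside every annotated gene, and capitals mark a TATAAA box in *Tnf* and a kappaB motif in *Ltb*.
Tnf: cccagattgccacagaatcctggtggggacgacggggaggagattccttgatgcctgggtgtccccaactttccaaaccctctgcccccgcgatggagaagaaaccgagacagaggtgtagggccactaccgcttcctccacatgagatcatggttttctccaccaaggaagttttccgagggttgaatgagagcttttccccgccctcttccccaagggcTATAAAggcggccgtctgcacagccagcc
Ltb: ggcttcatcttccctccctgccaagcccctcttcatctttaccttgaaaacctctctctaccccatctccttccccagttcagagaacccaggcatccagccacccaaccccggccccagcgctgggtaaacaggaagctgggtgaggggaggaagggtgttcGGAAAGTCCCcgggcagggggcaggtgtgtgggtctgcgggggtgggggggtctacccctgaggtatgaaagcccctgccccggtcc
Motifs were searched on both strands of the 250 bases. They were a single consensus form of the kappaB motif, TATAAA, the AP-1 motif TGANTCA and the STAT-type motif TTCNNNGAA. The kappaB motif was in 1 of the 9 windows, that of *Ltb*, 87 to 78 bases before the start, and in 7.25% of 32851 mouse windows of the same length. TATAAA was in 2 windows, in *Tnf* at 29 to 24 bases before the start and in *Lta*, against 12.4% of all windows. TTCNNNGAA was in 5 windows (*Lta*, *Ltb*, *Tnfrsf1a*, *Tnfrsf1b* and *Fas*) against 7.02% of all, and TGANTCA in that of *Fas* alone, against 6.75%. A match describes these letters only, sites that differ from them were not searched, and no relation of a motif to the readings was tested.

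Of the 10 genes, *Tnf* and *Casp8* were higher in Siah2 KO tumors, *Tnf* by 2.87-fold and *Casp8* by 1.35-fold, and the other 8 did not pass the test. No change passed for either receptor of Tnf or for its neighbours *Lta* and *Ltb*. Changes are given on the scale of log2(normalized count + 1), Siah2 KO minus WT, from limma over all 770 genes with Benjamini-Hochberg adjustment, and a gene passed at an adjusted p under 0.05. The 2 genes that passed are 2 of 10, where 41.0% of all genes passed in either direction and 31.3% passed as higher, so the share among these genes was not above that of the panel. The groups did not overlap for the same 2 genes, against 31.6% of all genes and 24.5% of all genes with the Siah2 KO tumors above. The median log2 fold change was 0.22 over the 10 genes and 0.24 over all genes, and 4 of the 10 were above that median. At an unadjusted p under 0.05, 4 of the 10 genes and 384 of all 770 were counted.

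**Figure D1:**
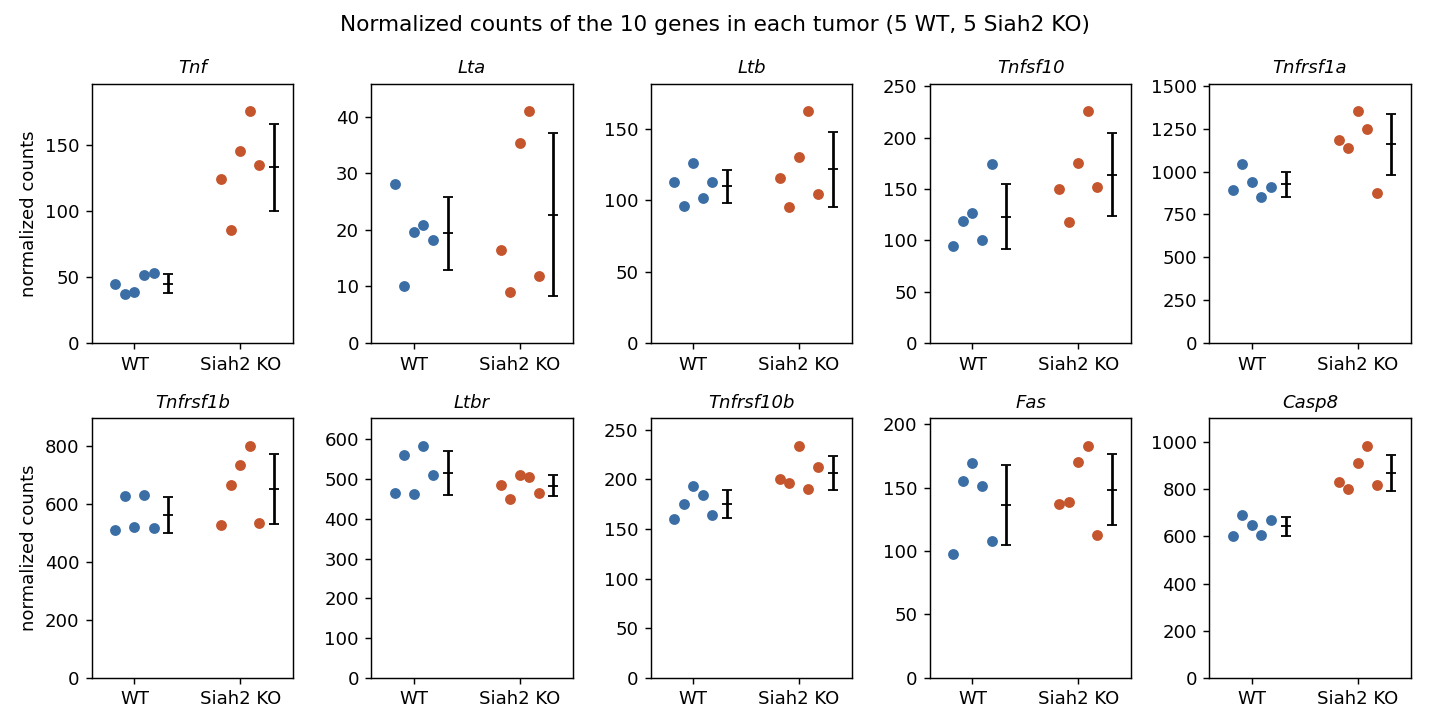
Normalized counts (vertical axes, each from 0) of the 10 genes in the 5 WT tumors (blue) and the 5 Siah2 KO tumors (orange), a point for each tumor, with the mean and SD as bars at the side. The groups are apart for Tnf and for Casp8 and overlap for the other 8 genes.

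*Tnf* read 44.4, 37.4, 38.9, 51.2 and 52.9 normalized counts in tumors WT2, WT3, WT4, WT5 and WT6. In the Siah2 KO tumors KO1, KO2, KO3, KO5 and KO6 it read 124, 85.7, 145, 175 and 135. The lowest Siah2 KO tumor, KO2, thus stood well above the highest WT tumor, and the WT tumors lay close together. The mean was 45.0 ± 7.01 in WT and 133 ± 32.7 in Siah2 KO tumors (SD, n = 5 each). Its log2 fold change was 1.52 (SE 0.19, 95% interval 1.11 to 1.93, adjusted p = 0.00030, limma). A two-sided exact permutation test over the 252 divisions of the tumors gave p = 0.0079, the smallest it can give. Leaving out each tumor in turn kept the log2 fold change between 1.41 and 1.67.

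*Lta*, which lymphocytes secrete, was dim and had the widest spread of the 10 genes for its mean. It read 28.1, 10.1, 19.6, 20.8 and 18.2 in WT2 to WT6, and 16.4, 8.92, 35.4, 41.0 and 11.9 in KO1, KO2, KO3, KO5 and KO6. The Siah2 KO tumors were split, KO3 and KO5 above every WT tumor and KO2 below every WT tumor. The log2 fold change was 0.06 with a 95% interval of -0.89 to 0.999 (adjusted p = 0.92, limma), and its sign turned when WT3, KO3 or KO5 was left out (-0.15, -0.15 and -0.21). A change in *Lta* was therefore not detectable at this spread in either direction.

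*Ltb*, which ties lymphotoxin to the membrane, read 112, 95.8, 126, 101 and 113 in the WT tumors. In the Siah2 KO tumors it read 115, 95.3, 130.1, 162 and 105, in the order KO1, KO2, KO3, KO5 and KO6. KO5 and KO3 were above all WT tumors and the others lay within or just under the WT range. It differed by 0.13 on the log2 scale (interval -0.20 to 0.46, adjusted p = 0.51, limma), and it was -0.14 with median scaling, -0.23 with quantile normalization and -0.03 with positive control scaling.

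*Tnfsf10*, which binds the TRAIL receptor and is induced by interferons, ranged from 94.2 to 174 in WT tumors with a median of 119. In Siah2 KO tumors it ranged from 118 to 226 with a median of 152. KO5 and KO3 exceeded every WT tumor, while WT6 was close to KO3. The difference was 0.42 on the log2 scale (interval -0.04 to 0.87, adjusted p = 0.13, limma), and without WT6 it was 0.55 with an adjusted p of 0.043.

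None of the 5 receptors passed the test. *Tnfrsf1a*, the receptor with a death domain, read 890.1, 1044, 937, 849.7 and 909.9 in WT2 to WT6 and 1186, 1139, 1351, 1251 and 875 in KO1, KO2, KO3, KO5 and KO6. KO6 was among the low WT tumors, and the other 4 exceeded WT3, the top of the WT range. The log2 fold change was 0.31 (interval 0.04 to 0.59, adjusted p = 0.063, limma), and without KO6 it was 0.41 with an adjusted p of 0.0069. It also passed with a mean of at least 20, a pseudocount of 10 and an intensity trend, and with quantile normalization the value was -0.07.

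*Tnfrsf1b*, the Tnf receptor without a death domain, is known chiefly from leukocytes and endothelium. It ranged from 511 to 632 in WT and from 529 to 800.4 in Siah2 KO tumors, with KO2, KO3 and KO5 above all WT tumors. Its log2 fold change was 0.21 (interval -0.11 to 0.52, adjusted p = 0.27, limma), and it was -0.06 with median scaling and -0.22 with quantile normalization.

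*Ltbr* was the single gene of the 10 with a negative log2 fold change. It read 465, 559.6, 462, 583 and 511 in the WT tumors and 486, 449, 510.2, 506 and 465 in the Siah2 KO tumors, in the order given above. The ranges overlapped broadly, and the Siah2 KO tumors were closer to each other than the WT tumors were. The log2 fold change was -0.09 (interval -0.30 to 0.12, adjusted p = 0.47, limma). It passed as lower with median scaling (-0.36, adjusted p = 0.0064) and quantile normalization (-0.46, adjusted p = 0.00082), and not with positive control scaling (-0.25, adjusted p = 0.73).

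*Tnfrsf10b*, the mouse TRAIL receptor, read 160.3, 175, 193, 184 and 164 in WT tumors and 201, 196, 234, 190.2 and 213 in Siah2 KO tumors. WT4, the top of the WT range, was exceeded by each tumor from a knockout host except KO5. Its log2 difference was 0.24 (interval 0.03 to 0.44, adjusted p = 0.059, limma), at the median of all genes, and it was -0.03 with median scaling and -0.06 with quantile normalization. It passed as higher with a mean of at least 20 (adjusted p = 0.041), values under 20 raised to 20 (0.026), a pseudocount of 10 (0.045) and the methods' test (0.032).

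*Fas*, the receptor of Fas ligand, ranged from 98.0 to 169 in WT and from 113 to 183 in Siah2 KO tumors. KO3 and KO5 alone exceeded WT4, the top of the WT range. The log2 fold change was 0.13 (interval -0.29 to 0.55, adjusted p = 0.59, limma) and was negative under each other scaling, from -0.15 to -0.03.

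*Casp8*, the caspase on which these death receptors converge, read 601, 690.2, 650.0, 604 and 669 in WT2 to WT6. In KO1, KO2, KO3, KO5 and KO6 it read 831, 803, 914, 984 and 817. The lowest Siah2 KO tumor, KO2, exceeded the highest WT tumor, WT3, and both groups were tight. The means were 643 ± 39.5 and 869.6 ± 77.2 (SD, n = 5 each), with a log2 fold change of 0.43 (SE 0.09, interval 0.24 to 0.63, adjusted p = 0.0035, limma; exact permutation p = 0.0079). The call did not outlast a change of scaling, with 0.17 (adjusted p = 0.12) after median scaling, 0.01 (adjusted p = 0.93) after quantile normalization and 0.27 (adjusted p = 0.68) after positive control scaling.

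**Figure D2:**
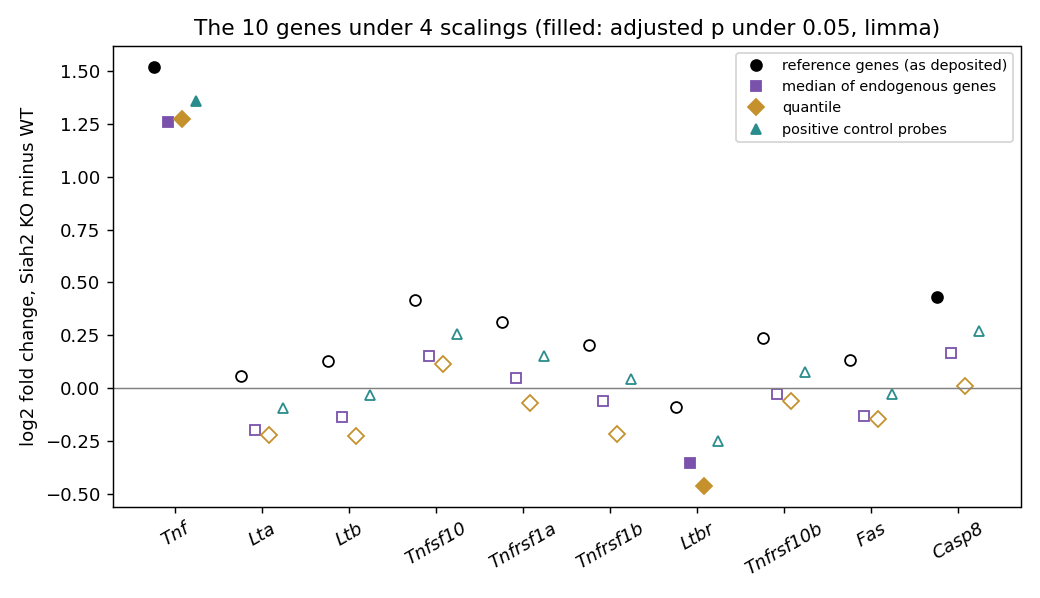
Log2 fold changes (vertical axis, Siah2 KO minus WT) of the 10 genes under the deposited reference gene scaling, median scaling, quantile normalization and scaling to positive control probes, filled where the adjusted p (limma) was under 0.05. Tnf stays between 1.26 and 1.52 and is filled under all 4 scalings, Casp8 is filled under the deposited scaling alone, Ltbr is filled as lower under median and quantile scaling, and Lta, Ltb, Tnfrsf1a, Tnfrsf1b, Tnfrsf10b and Fas change sign under at least 1 of them.

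The deposited values were scaled to reference genes, and this scaling set the level of the whole comparison. With median scaling the median log2 fold change of all 770 genes moved by -0.25, with quantile normalization by -0.28 and with positive control scaling by -0.16. Of the genes that passed, 76.3% were higher in Siah2 KO tumors with the deposited scaling, 51.7% with median scaling, 45.8% with quantile normalization and 63.2% with positive control scaling. Among the 10 genes, 9 had a positive log2 fold change with the deposited scaling, 4 with median scaling, 3 with quantile normalization and 6 with positive control scaling. Relative to those medians *Tnf* was higher by 1.26 to 1.31 under the 4 scalings and *Casp8* by 0.05 to 0.20.

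Multiplying a tumor by a factor leaves the differences between its genes as they are, apart from the added 1, whereas quantile normalization does not. They are given for 11 pairs as the change in log2 ratio, with no comparison of levels between probes. The ratio of *Tnf* to *Tnfrsf1a* was higher in Siah2 KO tumors by 1.21, that to *Tnfrsf1b* by 1.31, that to *Lta* by 1.46 and that to *Ltb* by 1.39. For each of these 4 ratios the groups did not overlap. For *Tnf* over *Ltb* the tumors ran from -1.67 to -0.97 in WT and from -0.15 to 0.36 in Siah2 KO. The ratio of *Lta* to *Ltb* differed by -0.07, that of *Tnfsf10* to *Tnfrsf10b* by 0.18, that of *Ltb* to *Ltbr* by 0.22, that of *Tnfrsf1b* to *Tnfrsf1a* by -0.11 and that of *Casp8* to *Fas* by 0.30, all with overlap of the groups.

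With the deposited scaling most leukocyte, T cell, macrophage and natural killer cell genes were also higher in the Siah2 KO tumors. In bulk RNA a change in the number of cells of a type and a change in RNA per cell cannot be told apart. Of 8 leukocyte genes 7 passed as higher and none as lower, and their summed level was 4643 to 5710.1 in WT and 6860 to 10324 in Siah2 KO tumors. Of 8 T cell genes 5 passed as higher (sums 562 to 738 and 779 to 1368), of 8 macrophage genes 5 (17432 to 23504 and 19482 to 36361), of 5 natural killer cell genes 4 (842 to 1094 and 1362 to 2095) and of 8 neutrophil genes 1 (455 to 747 and 325 to 1393). Of 6 B cell genes, all with a mean under 20 normalized counts, 1 passed as higher (17.6 to 26.5 and 21.4 to 54.5). Of 6 fibroblast genes 5 passed as lower (30096 to 39860 and 18256 to 22966), of 3 melanoma genes 2 as lower (438 to 594 and 224 to 405), and of 7 endothelial genes 1 as higher and 2 as lower (1266 to 1387 and 1157 to 1340). These counts depended on the scaling. With median scaling 4 leukocyte, 4 T cell, 5 macrophage and 4 natural killer cell genes passed as higher and 6 fibroblast and 6 endothelial genes as lower, and with positive control scaling 2, 0, 0 and 1 as higher and 2 and 1 as lower. Of the melanoma markers *Cspg4* fell from 350.3 to 198 and *S100b* from 14.6 to 1.72 normalized counts, the latter close to the floor of 1. The median log2 level of the leukocyte genes was higher by 0.55 in Siah2 KO tumors, from 8.68 to 9.08 in WT and from 9.26 to 9.89 in Siah2 KO. Tumor KO5 had the highest leukocyte median and the highest reading of all 10 tumors for 7 of the 10 genes. Among the Siah2 KO tumors KO2 was lowest for 6 genes. The lowest leukocyte median of these tumors was that of KO6 (9.26, against 9.29 in KO2), which was lowest for 2 genes. The part of cell composition in the change of any 1 gene was not tested.

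When the leukocyte median of the same tumor was taken off each gene, *Tnf* remained higher and 3 of the other genes came out lower. *Tnf* was higher by 0.97 (SE 0.14, adjusted p = 0.00045, limma), at -3.67 to -3.32 in WT and -2.85 to -2.18 in Siah2 KO tumors, with no overlap. *Ltbr* was lower by 0.64 (log2 difference -0.64, adjusted p = 0.0024), at -0.07 to 0.20 in WT and -0.91 to -0.39 in Siah2 KO tumors. These 2 calls were kept in all 10 fits that left out 1 tumor. *Ltb* differed by -0.43 (adjusted p = 0.034), without overlap of the groups, and *Tnfrsf1b* by -0.35 (adjusted p = 0.047). The *Ltb* call was lost without WT2, WT4, KO1, KO2, KO3 or KO6, and the *Tnfrsf1b* call without any 1 tumor other than WT6 or KO2. These 4 calls of 10, 1 of them higher, compare with 44.2% of all genes called on this scale and 10.1% called as higher, and the median was -0.33 over the 10 genes and -0.32 over all. *Casp8* was -0.12 (adjusted p = 0.46), *Tnfsf10* -0.14, *Tnfrsf1a* -0.24, *Tnfrsf10b* -0.32, *Fas* -0.42 and *Lta* -0.50, and none of these 6 passed. Against the median of the T cell genes *Tnf* was higher by 0.63 (adjusted p = 0.023), and against that of the macrophage genes by 1.09 (adjusted p = 0.00034).

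**Figure D3:**
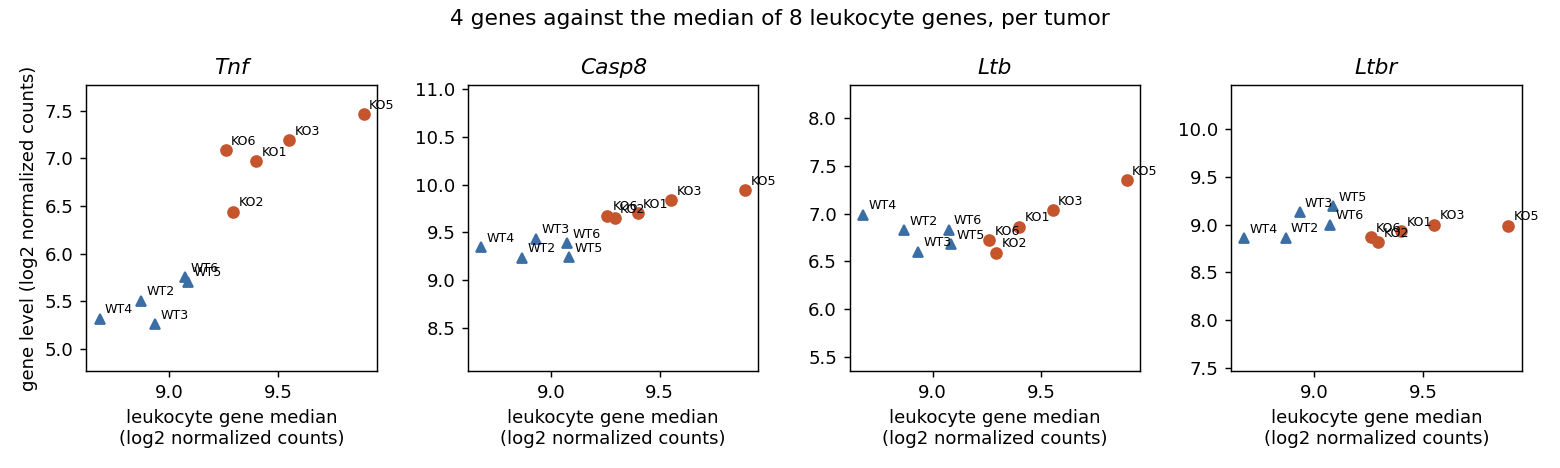
Log2 level of Tnf, Casp8, Ltb and Ltbr (vertical axes, all spanning the same range) against the median log2 level of 8 leukocyte genes in each tumor (horizontal axes), with WT tumors as blue triangles and Siah2 KO tumors as orange circles. The Siah2 KO tumors lie to the right of all WT tumors, KO5 furthest, and are higher than WT in Tnf and Casp8 while the groups overlap in Ltb and Ltbr.

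The spread among tumors was also set beside the leukocyte genes. In 7 of the 10 genes the SD of log2 values was larger in Siah2 KO than in WT tumors, and in 7 of the 10 it became smaller in Siah2 KO tumors once the leukocyte median was taken off, against 2 of the 10 in WT tumors. For *Ltb* the SD among Siah2 KO tumors went from 0.30 to 0.08, and for *Fas* from 0.27 to 0.13. It grew for *Tnfrsf10b* (0.12 to 0.31), *Ltbr* (0.08 to 0.20) and *Casp8* (0.13 to 0.14). Among WT tumors the SD of *Ltb* grew from 0.15 to 0.29. The same counts over all genes are not given here. Whether the smaller spread is particular to these genes or to the leukocyte median was not tested.

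**Figure D4:**
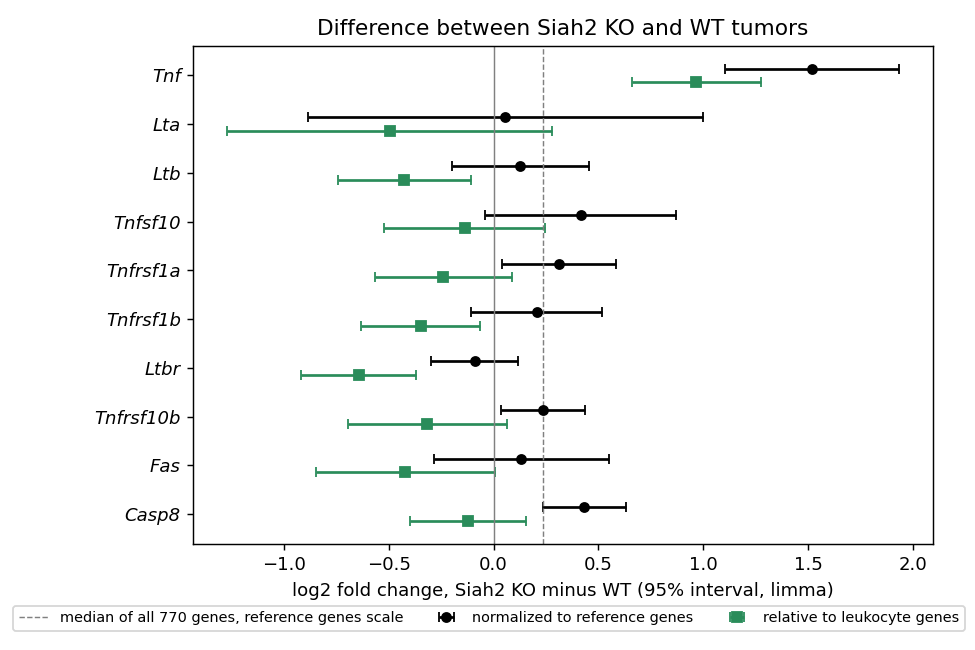
Log2 fold changes (horizontal axis, Siah2 KO minus WT) of the 10 genes with 95% intervals from limma, black on the deposited scale and green relative to the leukocyte gene median of each tumor, with the median of all 770 genes on the deposited scale (0.24) as a dashed line. Tnf is above 0 on both scales, and the other 9 genes lie below 0 on the second, where Ltb, Tnfrsf1b and Ltbr have intervals below 0.

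Other genes of the pathway were read from 6 lists with 66 genes in all, of which 17 passed as higher and 2 as lower. These 19 are a smaller share than in the panel, where 41.0% of all genes passed in either direction and 31.3% as higher. With the deposited scaling the counts of each list below stand against the same shares. With median scaling 10 of the 66 genes passed as higher and 9 as lower, and with positive control scaling 6 as higher and 0 as lower. Of all 770 genes, 163 passed as higher and 152 as lower with median scaling, and 60 and 35 with positive control scaling. List counts under those 2 scalings stand against these numbers. Their median log2 fold change was 0.18, against 0.24 over all genes. Among 8 genes of death signalling 2 passed, both higher. With median scaling 2 passed as higher and 2 as lower, and with positive control scaling 1 as higher and 0 as lower. *Fasl*, the ligand of Fas from cytotoxic lymphocytes, read 12.8, 10.1, 11.4, 8.93 and 16.3 in WT2 to WT6 and 39.7, 31.3, 32.8, 33.6 and 20.1 in KO1, KO2, KO3, KO5 and KO6. The groups did not overlap, and the log2 fold change was 1.33 (SE 0.20, adjusted p = 0.00079, limma). Every WT reading of *Fasl* was under 20, and the size of the change depended on these low values. It was 0.60 (adjusted p = 0.014, limma) with values under 20 raised to 20 and 0.91 with a pseudocount of 10. The ratio of *Fasl* to *Fas* was higher by 1.20 in Siah2 KO tumors without overlap of the groups. *Bid*, which caspase-8 cleaves, rose from a mean of 130 ± 9.43 to 204 ± 28.9 (log2 fold change 0.64, adjusted p = 0.0016) and did not pass with positive control scaling. The adaptor *Fadd* was at -0.17 (adjusted p = 0.48, limma), with the groups overlapping. The ratio of *Casp8* to *Fadd* differed by 0.61, with the groups overlapping.

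Of 18 genes that carry the signal inside the cell, 4 passed as higher and 1 as lower, and the median was 0.09. The split turned to 1 higher and 5 lower with median scaling, and 0 passed with positive control scaling. *Tnfaip3*, the A20 protein that is induced by NF-kappaB and shuts it off, rose from 146 ± 9.75 to 277 ± 66.1 (log2 fold change 0.89, adjusted p = 0.0016), with KO3 and KO5 highest, and did not pass with positive control scaling. *Nfkbia*, the NF-kappaB inhibitor induced along with it, was at 0.24 (adjusted p = 0.30), with KO3 and KO5 above all WT tumors and the others within their range, and at -0.03 with median scaling and -0.09 with quantile normalization. The receptor adaptor *Traf2* was at 0.09 (adjusted p = 0.50) and negative under each other scaling. *Ikbkg*, a subunit of the kinase that frees NF-kappaB, was higher by 0.35 (adjusted p = 0.042) and the adaptor *Tank* by 0.30 (adjusted p = 0.028). *Chuk*, a catalytic subunit of the same kinase, was higher by 0.25 (adjusted p = 0.038), and *Tab1* was lower with -0.27 (adjusted p = 0.041). These last 4 calls were lost in the 8 tumors with numbers shared by the groups and under positive control scaling, and *Chuk* turned negative with median scaling and *Chuk* and *Tank* with quantile normalization. *Ikbkg* was at 0.08 and *Tank* at 0.04 with median scaling and *Ikbkg* at 0.02 with quantile normalization, none of them called, while *Tab1* was at -0.53 (adjusted p = 0.0012, limma) and -0.60 (adjusted p = 0.00081). *Ikbkg* also lost its call without any 1 of the WT tumors, KO1 or KO3, *Tank* without WT2, WT4, WT6, KO3 or KO5, *Chuk* without any 1 tumor other than WT5 or KO6, and *Tab1* without any 1 tumor other than WT4 or KO5.

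Of 12 genes known to be induced by Tnf, 6 passed as higher and 1 as lower, with a median log2 fold change of 0.74. *Ptgs2*, the inducible cyclooxygenase, read 158 to 244 in WT and 677 to 1806 in Siah2 KO tumors, a log2 fold change of 2.28 (SE 0.26, adjusted p = 0.00022, limma). *Ccl2*, which draws monocytes, rose from 5633 ± 976 to 16407 ± 4013 (log2 fold change 1.53, adjusted p = 0.00023), and *Il1b*, the inflammasome cytokine, from 290.4 ± 66.8 to 824 ± 183 (1.51, adjusted p = 0.00057). For all 3 genes the groups did not overlap, and the 3 other genes that passed as higher were *Sele* (0.75), *Cxcl1* (1.05) and *Cxcl2* (2.49, at a mean of 2.10 in WT). Of these, *Sele* did not pass under the other 3 scalings, *Cxcl1* under positive control scaling or *Cxcl2* with values under 20 raised to 20. *Vcam1*, an adhesion molecule of activated endothelium, was the gene that passed as lower (-0.39, adjusted p = 0.043). Its call was lost in the 8 tumors with numbers shared by the groups, under positive control scaling and without any 1 tumor other than KO5. It passed as lower with median scaling (-0.66, adjusted p = 0.0017, limma) and quantile normalization (-0.78, adjusted p = 0.00058). These genes respond to other inflammatory signals as well, and their relation to *Tnf* was not tested.

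Further ligands and receptors of the same superfamily were also read. Of 10 ligands, 8 of them with a mean under 20 normalized counts, 1 passed, *Tnfsf15*, which read 2.27 to 6.65 in WT and 11.99 to 30.3 in Siah2 KO tumors (log2 fold change 1.84, adjusted p = 0.00082) and did not pass once values under 20 were raised to 20. *Tnfsf14* (LIGHT), which shares Ltbr with lymphotoxin, was at 0.42 (adjusted p = 0.10), and at 0.54 (adjusted p = 0.029) without KO6. Of 13 further receptors 4 passed as higher and none as lower, and 1 in each direction with median scaling and 0 with positive control scaling. *Tnfrsf14*, the other receptor of LIGHT, rose from 346 ± 49.5 to 664 ± 198 (0.90, adjusted p = 0.0043), with no call under positive control scaling. *Tnfrsf12a*, the TWEAK receptor, rose from 913 ± 26.4 to 1288 ± 143 (0.49, adjusted p = 0.0023), with no call under the other 3 scalings. *Tnfrsf9* (4-1BB), a marker of activated T cells, was higher by 1.07 (13.8 ± 5.93 to 29.6 ± 11.8, adjusted p = 0.034), a call that was lost in the 8 tumors with numbers shared by the groups, without WT3, WT6, KO1, KO3 or KO5, under median and positive control scaling, with values under 20 raised to 20 and with the methods' test. *Tnfrsf8* was higher by 0.75 (adjusted p = 0.049), and passed in 1 of the 10 fits that left out a tumor, that without KO6, and under none of the other 3 scalings. Of 5 genes of lymphoid organ formation, 4 of them with a mean under 20, none passed with limma, none was at an unadjusted p under 0.05, and none passed with the methods' test.

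**Figure D5:**
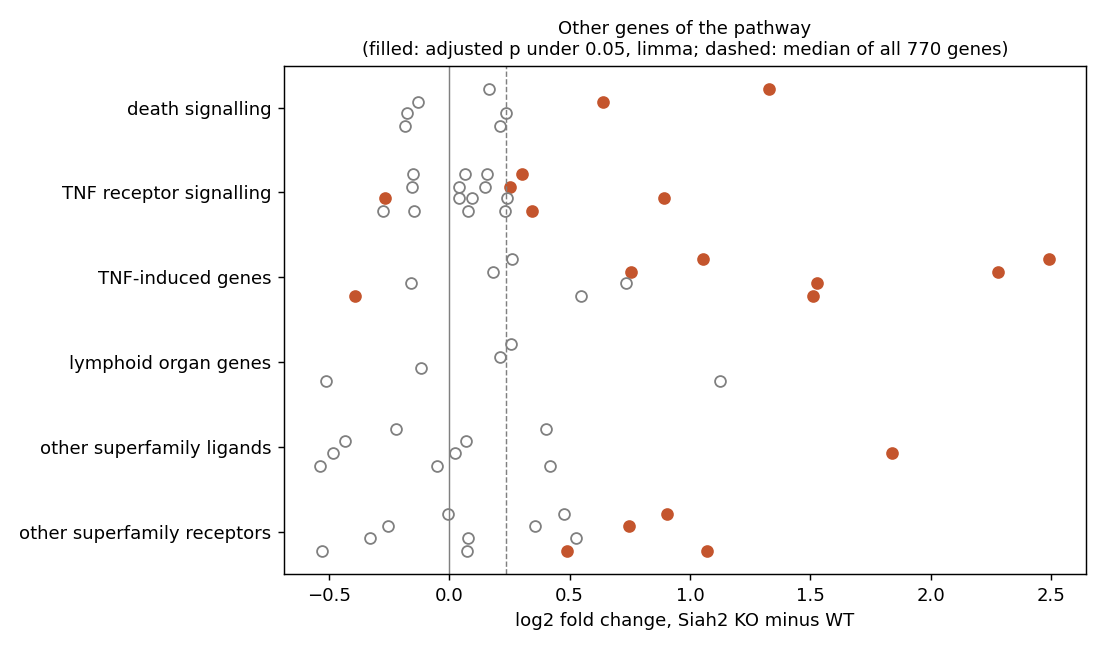
Log2 fold changes (horizontal axis, Siah2 KO minus WT) of the 66 further pathway genes, a point for each gene in a row for each list, filled where the adjusted p (limma) was under 0.05, with the median of all 770 genes (0.24) as a dashed line. The filled points above 1 are Fasl, 5 genes known to be induced by Tnf, Tnfsf15 and Tnfrsf9, and 2 filled points lie below 0.

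The genes whose pattern over the 10 tumors was most like that of *Tnf* were taken by the root mean square distance of centred log2 values. They were *Fcgr4* (0.16), *Slc11a1* (0.19), *Klra2* (0.19), *Klrc1* (0.25) and *Itgb2* (0.26), where the median distance over all genes was 0.75. The distance keeps the difference between the groups and so favours genes with a log2 fold change near that of *Tnf*, here 1.16 (*Itgb2*) to 1.57 (*Slc11a1*). It does not measure likeness within a group, and the rises and ranks that follow partly restate the fold changes. *Fcgr4*, an activating Fc receptor of myeloid cells, went from 1698 ± 241 to 4673 ± 983, *Slc11a1*, a metal transporter of phagocytes, from 132 ± 37.9 to 393 ± 116, and *Klrc1*, an NK cell receptor chain, from 141 ± 11.3 to 405 ± 79.4. Of the other 9 members of the pathway *Casp8* was nearest, at rank 215, followed by *Tnfsf10* at 219, and *Lta* was furthest at 543.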

How the data were processed

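For 10 tumors the table gives 784 probes, made up of 750 endogenous and 20 reference genes with 6 positive and 8 negative controls. The deposited signal is, per the labels and the study's methods, the NanoString count that the authors passed through nSolver quality control and scaled by the 20 reference genes (normalized counts). In every tumor 100% of low values lay within 0.1 of whole steps of that tumor's factor, after a constant had been taken off and a floor of 1 set, so raw counts could not be recovered. The factor was 0.918 to 1.32 in WT and 1.03 to 1.60 in Siah2 KO tumors, and values before it summed to 443469 to 578702 and 382860 to 581635. Intervals cover the spread between tumors only.

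From these values log2(value + 1) was computed for 770 genes and compared, two-sided, by limma (3.58.1, lmFit and eBayes; R 4.3.3), with Benjamini-Hochberg adjustment. Values relative to leukocytes, T cells or macrophages had the median log2 value of 8 genes taken off per tumor. The members and lists were chosen with earlier results of these data known. Named were the 10 members, *Fasl*, *Fadd*, *Traf2*, *Tnfaip3*, *Nfkbia* and *Tnfsf14*, up to 3 genes per list with the largest change among those that passed with a mean of at least 20, and the 5 genes nearest to *Tnf*; a further gene under this rule is not reported here. *Chuk*, *Tab1*, *Vcam1*, *Sele*, *Cxcl1*, *Cxcl2*, *Tnfsf15* and *Tnfrsf8* fall outside this rule and were named after their values were seen. Alternatives were median, quantile and positive control scaling, a pseudocount of 10, a mean of at least 20, values under 20 raised to 20, leaving the reference genes out, the methods' test (equal variances, each gene alone), an intensity trend, a replicate block in the 8 tumors whose number is in both groups, those tumors without it, and leaving out each tumor. Plots used matplotlib 3.10.9 (Python 3.11.15).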

Additional observations from a re-analysis of the deposited data

How the results depend on the processing

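*Tnf* was higher under every alternative run, at 1.26 to 1.67 with an adjusted p of at most 0.013 (limma or the methods' test). *Casp8* kept its direction, with 0.39 to 0.46 when 1 tumor was left out, and lost its call under the 3 other scalings. The number of members that passed was 2 (*Tnf* and *Casp8*), and 1 under positive control scaling. With median scaling and quantile normalization it was also 2, but these were *Tnf* as higher and *Ltbr* as lower. It was 4 with a mean of at least 20 and 4 with a pseudocount of 10 (*Tnfrsf1a* and *Tnfrsf10b* added). It was 3 with values under 20 raised to 20, 3 with an intensity trend, and 2 to 3 without 1 tumor. The number without overlap was 0 under positive control scaling. The pathway genes that passed were 19, with 6 under positive control scaling and 13 to 20 without 1 tumor. Over all genes 316 of 770 passed, with 95 under positive control scaling, 315 with median scaling and 334 with quantile normalization. The count was 339 with a pseudocount of 10, 306 with values under 20 raised to 20 and 330 with an intensity trend. With a mean of at least 20 it was 332 of the 602 genes kept, and without 1 tumor it was 268 to 334. Relative to leukocyte genes, 4 members passed, 2 in the replicate block, 2 in those 8 tumors without it and 2 to 5 without 1 tumor. Against T cell genes 8 passed, *Tnf* as higher and all the rest as lower, where the T cell median itself was higher by 0.89 in Siah2 KO tumors. Against macrophage genes 2 passed, *Tnf* as higher and *Ltbr* as lower, and *Casp8* was at 0.0051. The shares of all genes called against T cell or macrophage genes are not given here. The sign turned under median scaling for *Lta* (-0.20), *Ltb* (-0.14), *Tnfrsf1b* (-0.061), *Tnfrsf10b* (-0.029), *Fas* (-0.13), *Traf2* (-0.17), *Nfkbia* (-0.025) and *Chuk* (-0.011). It turned under quantile normalization for *Lta* (-0.22), *Ltb* (-0.23), *Tnfrsf1a* (-0.072), *Tnfrsf1b* (-0.22), *Tnfrsf10b* (-0.059), *Fas* (-0.15), *Traf2* (-0.22), *Nfkbia* (-0.094), *Tank* (-0.016) and *Chuk* (-0.12), and under positive control scaling for *Lta* (-0.095), *Ltb* (-0.033), *Fas* (-0.028) and *Traf2* (-0.069). *Lta* ranged from -0.21 to 0.31 when 1 tumor was left out. The cause of these changes was not tested.

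In the replicate block *Tnf* was at 1.49 (adjusted p = 0.013, limma) and *Casp8* at 0.45 (adjusted p = 0.042). Same-numbered tumors correlated in their deviations at 0.035, 0.050, 0.17 and 0.35 for numbers 2, 3, 5 and 6. These values are low, yet each of the 8 tumors correlated best with its own number. The labels do not say whether same-numbered tumors belong together, so a pairing or shared batch stays unresolved. The main fit took no pairing, and the block is given beside it. Over all genes 235 passed with the block and 232 without it. Both fits over these 8 tumors ended the calls of *Ikbkg*, *Tank*, *Chuk*, *Tab1*, *Vcam1*, *Tnfrsf9* and *Tnfrsf8*, and relative to leukocyte genes those of *Ltb* and *Tnfrsf1b*, and the block changed no other call of a named gene. The methods' test counted 4 members and 379 genes at an unadjusted p under 0.05, and 3 members and 314 genes after Benjamini-Hochberg adjustment. The planned count test (edgeR) was not run, since whole counts could not be recovered. Low genes such as *Lta* limit what could be seen, as do 5 tumors a group.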
